A study of Cricetiscus sungorus with 24 samples.

Results

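The 46 genes described here act in the oxidation of fatty acids and in the peroxisome, and were measured in kidneys of Djungarian hamsters (Siberian hamsters, a species that changes its body and organs with the season) by nanopore sequencing of cDNA. The rule that selects them is a list of symbols grouped by known role, with no threshold on a measured value. They comprised 30 genes of mitochondrial oxidation, 8 peroxisomal enzymes, 6 Pex genes and 2 others, the nuclear receptor Ppara and the peroxisomal membrane transporter Abcd3. Experiment 1 listed 43 of the 46 among 9681 genes, without Acot2, Acox3 and Pex11a, and experiment 2 listed all 46 among 15842 genes.

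Experiment 1 held 12 adult males. Of these, 4 stayed in long photoperiod (LP, 16 h of light per day), 4 had spent 12 weeks in short photoperiod (SP12wk, 8 h of light per day) and 4 had spent 28 weeks in short photoperiod (SP28wk). Experiment 2 held 12 adult females that had spent 8 weeks in short photoperiod. Of these, 6 received the vehicle (SAL, a mixture of dimethyl sulfoxide and saline) and 6 received 18 µg of ovine prolactin in that vehicle (PRL), injected into the peritoneum on 3 consecutive days. No genetic change is given for any group. The study used the photoperiod groups to ask how the kidney follows a simulated year, and the injections to ask whether prolactin alone moves the kidney of a short-day animal. Each experiment was run on a flow cell of its own, so that sex, flow cell, depth and photoperiod history cannot be told apart between experiments. All comparisons below are therefore within an experiment.

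Fatty acids are burned in steps. Acyl-CoA synthetases activate the fatty acid, the carnitine shuttle carries long chains into the mitochondrion, and a cycle of dehydrogenation, hydration, a second dehydrogenation and thiolysis removes acetyl-CoA units. Peroxisomes run a related cycle on very long and branched chains, and the peroxins encoded by Pex genes build the peroxisome and import its enzymes. In the kidney, the proximal tubule is known for its many mitochondria and for its use of fatty acids as fuel, and Ppara is known as a transcription factor for genes of both cycles.

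A level is given as CPM, the reads of the gene's transcript row with most reads, scaled to a library of 1000000 reads. The deposited counts are estimates and need not be whole numbers. Levels were not divided by gene length, and hamster reads were aligned to mouse, so levels of different genes are not ranked against each other. The libraries of experiment 1 held 15688 to 57585 reads (1 row per gene) and those of experiment 2 held 174053 to 756523. In experiment 1 a single read was worth 17.4 to 63.7 CPM, and in experiment 2 it was worth 1.32 to 5.75 CPM. The 43 members listed in experiment 1 held 992 reads in all, with a median of 12 reads per gene, and 20 members had fewer than 10 reads. In experiment 2 the 46 members held 24560 reads with a median of 224, and 36 of the 46 were read in all 12 libraries. In experiment 1, LP replicate 2 stood apart, with a median Spearman correlation of 0.42 with the other libraries, against 0.67 to 0.79 for the rest. Of 17 proximal tubule markers, 16 were listed in either experiment. In bulk kidney, fewer cells of a type and less RNA per cell cannot be told apart.

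No block of members separated the photoperiod groups. The mitochondrial members summed to 2759 ± 668 CPM in LP, to 2771 ± 421 in SP12wk and to 2535 ± 359 in SP28wk (SD, n = 4 each). The 8 peroxisomal enzymes summed to 145 ± 130, 197 ± 199 and 194 ± 66.9 CPM in these groups. The 6 Pex genes summed to 127 ± 114, 63.3 ± 55.1 and 97.9 ± 16.7 CPM. The ranges of the groups overlapped in all 3 blocks. No test was made on the sums. With all transcripts of a gene summed in place of the row with most reads, the difference of SP28wk from LP went from -28.7 to 76.8 CPM for the Pex genes and from -224 to -814 CPM for the mitochondrial members, and that of SP28wk from SP12wk went from 34.6 to 158 CPM and from -236 to -627 CPM.

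**Figure D1:**
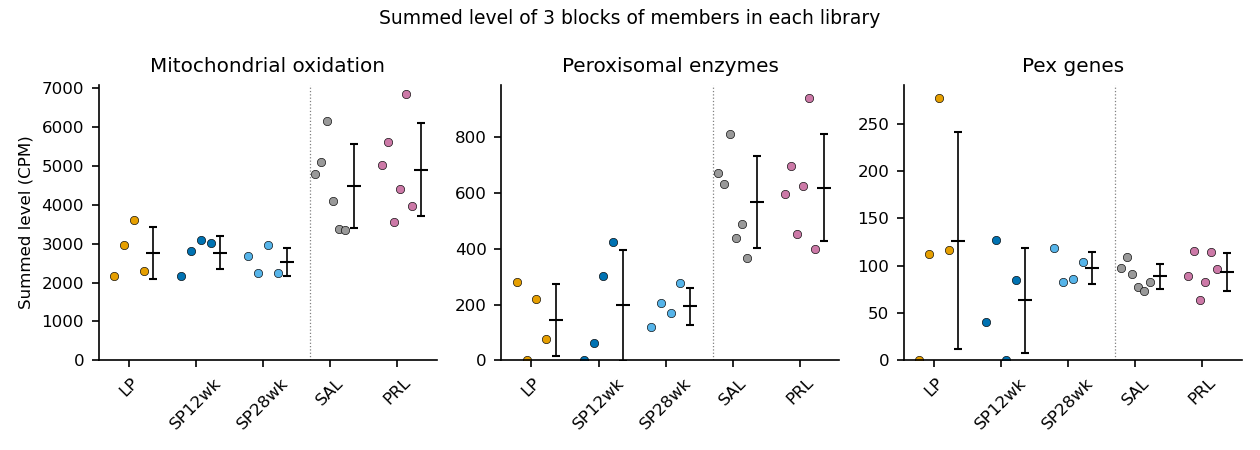
Summed level in CPM (vertical axes, from 0) of the 30 mitochondrial oxidation genes, the 8 peroxisomal enzymes and the 6 Pex genes in each library of the 5 groups; each point is 1 kidney, the bar beside the points is the mean and its whiskers are 1 SD. Groups of an experiment overlap in every panel, and the dotted line parts the experiments, whose levels are not compared.

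Of the members, 28 had a read in at least 4 of the 12 libraries of experiment 1 and were tested among 5086 genes with edgeR. None passed a Benjamini-Hochberg adjusted p of 0.05 in any of the 4 comparisons. Between SP12wk and LP, 1 of the 5086 genes (0.0197%) passed; between SP28wk and SP12wk, 0.138% passed; between SP28wk and LP, 0.216% passed; and with LP and SP28wk in equal weight against SP12wk, 0.0393% passed. DESeq2 and limma-voom also called no member. The median log2 fold change of the 28 was 0.29 for SP12wk minus LP, or 0.27 with genes that lack reads in a group set to their bound, where the median of all genes was -0.001. It was -0.10 for SP28wk minus SP12wk, where all genes had 0.16, and 0.22 for SP28wk minus LP (0.10 at the bounds), where all genes had 0.18. With LP and SP28wk against SP12wk the medians were -0.19 and 0.06. Scaling by library totals without TMM, edgeR's correction for composition, moved the medians of all genes to -0.17, 0.01, -0.16 and 0.07 in the same order. Small fold changes are therefore to be read against these medians.

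At an unadjusted p under 0.05, 3 of 28 members differed between SP12wk and LP, where 7.26% of all genes did. All 3 (Acadm, Hadha and Scp2) were higher in SP12wk, as were 4.56% of all genes, and none was lower, as were 2.69%. Without LP replicate 2 or without LP replicate 3 only 1 member was higher at that p, and without SP12wk replicate 4 none was and 1 was lower. Between SP28wk and SP12wk no member passed that p, where 6.1% of all genes did, with 4.6% higher and 1.49% lower. There, 1 or 2 members were higher without SP12wk replicate 3 or 4, and 1 was lower without SP12wk replicate 1, SP28wk replicate 2 or SP28wk replicate 4. Acadm encodes the medium-chain acyl-CoA dehydrogenase, which opens the mitochondrial cycle for medium chains. It had 0 reads in all 4 LP libraries. In SP12wk its levels were 0, 63.7, 50.2 and 56.5 CPM, and in SP28wk they were 39.5, 0, 28.6 and 0 CPM, each from at most 2 reads in a library. Pooled over libraries, the SP12wk level of Acadm was 1.16 times the LP limit of 3 reads. The exact 95% interval of the ratio of SP12wk to LP ran from 0.573 upwards and so includes no difference. It covers counting error only. The adjusted p of Acadm was 0.603, and the gene rested on 6 reads in experiment 1. Some such intervals of other members left out no difference. Among them, SP12wk to LP ran from 1.05 to 10.2 for Hadha and from 0.387 to 0.940 for Acsl1. SP28wk to LP ran from 1.20 to 13.9 for Acaa2 and from 0.114 to 0.782 for Cpt1a. These intervals leave out the spread between kidneys, and none of these members passed an adjusted p of 0.05.

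Hadha encodes the alpha subunit of the trifunctional protein, which hydrates and then oxidizes long-chain intermediates. Its levels were 94.1, 0, 166 and 0 CPM in LP, 123, 319, 151 and 170 CPM in SP12wk, and 119, 83.0, 57.1 and 52.1 CPM in SP28wk. The mean was highest in SP12wk, with every library of SP28wk below every library of SP12wk, while LP overlapped SP12wk. The reads behind these levels were 3, 5, 3 and 6 in SP12wk and 3, 2, 2 and 3 in SP28wk. Replicate 1 of both groups, the closest libraries, held 3 reads each and differed in level only through library size. The log2 fold change was 1.67 ± 0.79 (SE) for SP12wk minus LP (adjusted p = 0.622) and -1.11 ± 0.70 for SP28wk minus SP12wk (adjusted p = 0.977). Such a separation downwards was found for 1.53% of all genes between SP28wk and SP12wk (0.826% after TMM scaling), and Hadha was the 1 member with it on either scale. No member was separated upwards, as 1.85% of all genes were (2.3% after TMM scaling). The beta subunit of the same protein, Hadhb, did not follow the same order, at 116 ± 75.9, 61.2 ± 48.2 and 49.9 ± 40.2 CPM in LP, SP12wk and SP28wk.

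With LP and SP28wk in equal weight against SP12wk, 2 members had an unadjusted p under 0.05, where 6.78% of all genes did. Hadha and Acadm were both lower, as were 3.26% of all genes, and no member was higher, as were 3.52%. For Hadha the log2 fold change was -1.39 ± 0.63 (adjusted p = 0.686). Without LP replicate 4, SP12wk replicate 2 or SP28wk replicate 4, 1 member was lower, and without SP12wk replicate 4 none was and 1 was higher. The comparison shares its libraries with the pairwise ones and adds no separate evidence.

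Scp2 encodes sterol carrier protein, whose longer form is a peroxisomal thiolase. Its only LP read was in replicate 4, at 38.8 CPM. In SP12wk its levels were 0, 0, 100 and 170 CPM, and in SP28wk they were 0, 83.0, 57.1 and 34.7 CPM. With 8 reads in SP12wk against 1 in LP, the pooled ratio was 6.94, with an exact 95% interval of 0.931 to 308 that covers counting error only, and the adjusted p was 0.641. The other peroxisomal enzymes tested did not stand apart. Hsd17b4, which hydrates and dehydrogenates in the peroxisomal cycle, was at 98.4 ± 93.0, 69.3 ± 50.7 and 67.2 ± 46.1 CPM in LP, SP12wk and SP28wk, and Acaa1a, the peroxisomal thiolase, had 3, 4 and 5 reads in the groups. Ehhadh, the other bifunctional enzyme of the peroxisome, had 2 reads in experiment 1 and was not tested.

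Between SP28wk and LP, 1 member had an unadjusted p under 0.05, where 8.57% of all genes did. This was Acaa2, which was higher in SP28wk, as were 6.61% of all genes, and no member was lower, as were 1.97%. Without SP28wk replicate 3 no member was higher, without LP replicate 2 or 4 there were 2, and without LP replicate 1 there was 1 lower. Acaa2 is the mitochondrial thiolase that closes the cycle for medium and short chains. Its levels were 0, 0, 55.5 and 117 CPM in LP, 40.9, 0, 301 and 56.5 CPM in SP12wk, and 79.0, 124, 314 and 139 CPM in SP28wk. All 4 SP28wk libraries held reads of Acaa2, while LP replicate 4 still lay above SP28wk replicate 1. The log2 fold change was 2.05 ± 0.79 (adjusted p = 0.437), from 24 reads in SP28wk and 4 in LP. The summed proximal tubule markers were at 3540 ± 1010 CPM in LP and 3342 ± 631 CPM in SP28wk. The part of tubule content in the level of Acaa2 was not tested.

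Etfb and Etfa encode the subunits of the electron transfer flavoprotein, which takes electrons from the acyl-CoA dehydrogenases, and held 152 and 103 reads in experiment 1. Etfb was at 376, 337, 499 and 272 CPM in LP, at 491, 510, 552 and 452 CPM in SP12wk, and at 435, 747, 628 and 417 CPM in SP28wk. LP replicate 3 reached into both SP groups. After division by the TMM scaling factors, which were 1.41 for LP replicate 2 and 1.25 for LP replicate 3, LP lay between 238 and 399, below SP12wk (449 to 550) and SP28wk (450 to 816). On that scale 1.38% of all genes were separated upwards between SP12wk and LP and 2.44% between SP28wk and LP, and Etfb was the only member in each. Downwards, 1.36% and 0.944% of all genes and no member were separated on that scale. The log2 fold change of Etfb was 0.62 ± 0.52 for SP12wk minus LP (adjusted p = 0.798) and 0.92 ± 0.51 for SP28wk minus LP (adjusted p = 0.642). Etfa did not separate, at 330 ± 203, 276 ± 104 and 330 ± 96.6 CPM.

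Unlike Etfb, Acsl1, a long-chain acyl-CoA synthetase that activates fatty acids, had its highest mean in LP in the unscaled levels. It was at 659, 785, 555 and 583 CPM in LP, at 450, 446, 351 and 339 CPM in SP12wk and at 672, 290, 314 and 382 CPM in SP28wk. Every LP library was above every SP12wk library, which held for 1.55% of all genes and for 1 of 28 members, while 1.12% of all genes and no member were separated upwards. After TMM scaling the ranges met, at 442.3 to 697.7 in LP and 349.9 to 466.4 in SP12wk. The log2 fold change was -0.52 ± 0.51 (adjusted p = 0.835). Cpt1a, the carnitine palmitoyltransferase that limits entry of long chains into the mitochondrion, was at 47.0, 280, 333 and 117 CPM in LP, at 0, 127, 25.1 and 198 CPM in SP12wk and at 119, 41.5, 85.7 and 17.4 CPM in SP28wk. Its groups overlapped, with a log2 fold change of -0.75 ± 0.73 for SP12wk minus LP (adjusted p = 0.835) and -1.21 ± 0.74 for SP28wk minus LP (adjusted p = 0.694).

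**Figure D2:**
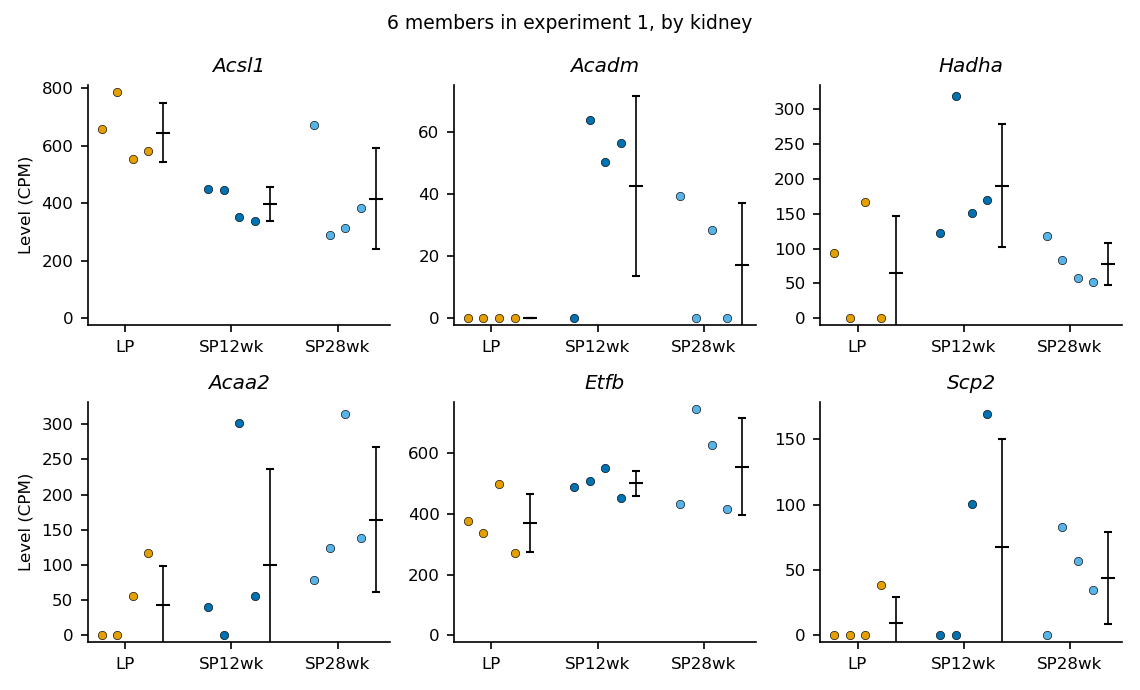
Level in CPM (vertical axes) of Acsl1, Acadm, Hadha, Acaa2, Etfb and Scp2 in LP, SP12wk and SP28wk; each point is 1 kidney (n = 4 per group), the bar is the mean and its whiskers are 1 SD, not drawn below the axis. Acadm, Scp2 and Acaa2 are at 0 in several libraries, and the LP points of Acsl1 lie above those of SP12wk before TMM scaling.

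The other members of experiment 1 gave low reads and overlapping groups. Hsd17b10, a mitochondrial short-chain hydroxyacyl-CoA dehydrogenase, was at 160 ± 55.5, 187 ± 128 and 142 ± 52.6 CPM in LP, SP12wk and SP28wk. Eci1, an isomerase that readies unsaturated chains for the cycle, was at 188 ± 80.0, 219 ± 130 and 202 ± 83.5 CPM. Abcd3, which carries acyl-CoA esters into the peroxisome, was at 206 ± 164, 101 ± 110 and 139 ± 42.3 CPM. Eci2, a second isomerase, was at 82.4 ± 60.8, 131 ± 63.9 and 34.4 ± 28.7 CPM, and Hadh, the dehydrogenase for shorter chains, at 40.9 ± 55.1, 71.1 ± 55.7 and 95.8 ± 82.4 CPM. The 15 listed members that were not tested held 1 to 6 reads each. Among them Oxct1, which takes up ketone bodies for fuel, had its 4 reads in LP. Echs1, the short-chain enoyl-CoA hydratase, is named after its values were seen, because all 4 SP28wk libraries (17.4 to 41.5 CPM) lay below all 4 LP libraries (47.0 to 77.7 CPM). That was so for 1.73% of all genes, with 1.57% separated upwards, each library held 1 or 2 reads of Echs1, and the separation was gone after TMM scaling. Among regulators and peroxins, Ppara had 8 reads, Pex14 (a docking protein for import) had 9 and Pex19 (which delivers membrane proteins to the peroxisome) had 2, and none of them showed a difference that such counts could resolve.

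Of 65 other fatty acid oxidation genes, 34 were tested in experiment 1 and none was called. At an unadjusted p under 0.05, 2 were higher and 1 was lower in SP12wk than in LP, as were 4.56% and 2.69% of all genes. Mcee, an enzyme of propionate breakdown, was at 88.2 ± 43.0 CPM in SP12wk and at 108 ± 74.0 CPM in SP28wk, with 0 reads in LP. Fabp3, a fatty acid-binding protein, was at 302 ± 200, 649 ± 317 and 615 ± 94.7 CPM in LP, SP12wk and SP28wk. Auh, a hydratase of leucine breakdown, had 0 reads in SP12wk and was at 58.9 ± 47.2 CPM in LP and 59.5 ± 40.3 CPM in SP28wk. Between SP28wk and LP, 3 were higher and 1 was lower, as were 6.61% and 1.97% of all genes. The lower gene was Hibadh, of valine breakdown, with a log2 fold change of -1.48 ± 0.46 (adjusted p = 0.176). Its levels were 1505, 6001, 5604 and 1282 CPM in LP and 664 to 1028 CPM in SP28wk, so that LP replicates 2 and 3 stood far above the rest. Between SP28wk and SP12wk, Auh was higher and Fabp1, the liver-type binding protein, was lower, at 7.14 ± 14.3 CPM against 60.7 ± 50.2 CPM. In that comparison 4.6% of all genes were higher and 1.49% lower at that p.

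Of 62 other peroxisome genes, 20 were tested and none was called. In SP12wk against LP, 4 were higher and 2 were lower at an unadjusted p under 0.05, as were 4.56% and 2.69% of all genes. Pex13, a docking peroxin, was at 313 ± 210, 78.0 ± 67.4 and 295 ± 110 CPM in the same order of groups, with log2 fold changes of -1.59 ± 0.68 (adjusted p = 0.603) and 1.84 ± 0.65 (SP28wk minus SP12wk, adjusted p = 0.614). Sod1, a superoxide dismutase found mainly in the cytosol and also in peroxisomes, was at 483 ± 270, 968 ± 331 and 1147 ± 326 CPM, and Mgst1, a microsomal glutathione transferase, was at 56.9 ± 65.7, 192 ± 222 and 128 ± 69.3 CPM. Against LP, SP28wk had 5 higher genes and none lower at that p, where 6.61% of all genes were higher and 1.97% lower. They included Sod1 with a log2 fold change of 1.51 ± 0.48 (adjusted p = 0.219), Pxmp2, a peroxisomal membrane channel, with 1.58 ± 0.56 (adjusted p = 0.361), and Dhrs4, a peroxisomal reductase, which was at 82.1 ± 25.5 CPM in SP28wk and had no read in LP. Of 29 lipid nuclear receptors and coactivators, 13 were tested and none was called. Klf15, a transcription factor of fasting metabolism, was at 168 ± 97.9, 21.2 ± 42.4 and 121 ± 71.9 CPM. Esrra, a receptor that drives mitochondrial genes, was at 117 ± 62.5 CPM in LP and 17.5 ± 20.9 CPM in SP28wk, with a log2 fold change of -2.25 ± 1.07 (adjusted p = 0.547). In the list, Esrra alone was lower in SP28wk than in LP at that p, and none was higher. Over all genes 2.69% were lower and 4.56% higher in SP12wk than in LP, and 1.97% and 6.61% in SP28wk than in LP.

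Prolactin did not separate the members either. In experiment 2 the mitochondrial members summed to 4477 ± 1082 CPM in SAL and 4902 ± 1202 CPM in PRL (SD, n = 6 each), with ranges of 3349 to 6138 and 3567 to 6849 CPM. The peroxisomal enzymes summed to 569 ± 166 and 619 ± 193 CPM, and the Pex genes to 88.6 ± 13.4 and 93.5 ± 19.9 CPM. In each block the difference between the means was smaller than the SD of either group.

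Of the 46 members, 45 had a read in at least 6 of the 12 libraries and were tested among 10696 genes. The exception was Acox3, with 5 reads in all. edgeR called none of the 45 at an adjusted p of 0.05, as it called 0% of all genes, and DESeq2 and limma-voom called none. Over all genes, no filter on low counts gave 92 calls and a replicate block gave 52, and leaving out SAL replicate 6, PRL replicate 3 or PRL replicate 4 gave 27, 26 and 44, with no member among them. At an unadjusted p under 0.05, 3 members differed, where 4.88% of all genes did. Of these, 2 were higher in PRL, as were 2.54% of all genes, and 1 was lower, as were 2.34%. Without PRL replicate 2 no member passed in either direction. Without SAL replicate 2, 5 or 6 or PRL replicate 1, 3 or 5 only 1 was higher, and without SAL replicate 3 or 5 or PRL replicate 1 none was lower. The log2 fold change was above 0 for 27 members and below 0 for 18, with a median of 0.05, against 0.03 for all genes. The groups overlapped for every member tested, while 0.112% of all genes were separated upwards and 0.028% downwards.

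**Figure D3:**
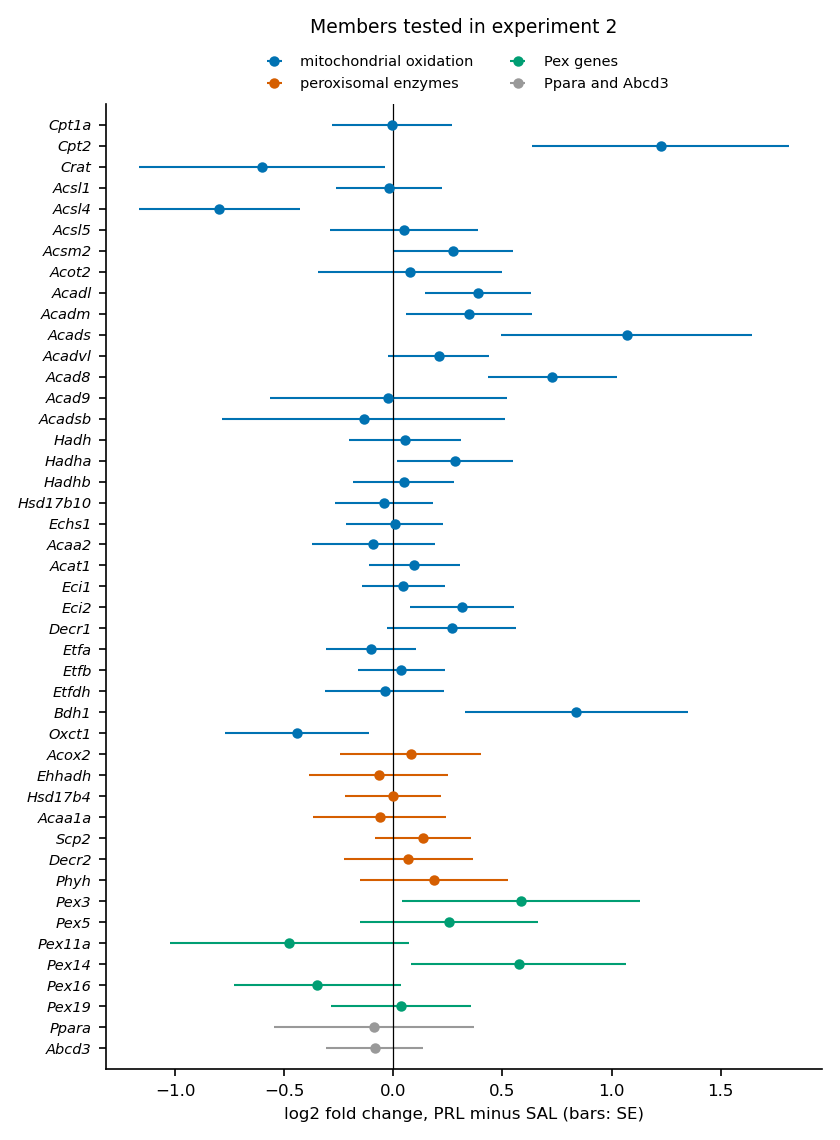
log2 fold change of PRL minus SAL (horizontal axis) for the 45 members tested, with bars of 1 SE, coloured by block. Most points lie within 0.5 of 0, and the 3 farthest (Cpt2 and Acads upwards, and Bdh1) have 35, 42 and 50 reads.

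The 3 members at an unadjusted p under 0.05 were all among the less read. Acad8, the isobutyryl-CoA dehydrogenase of valine breakdown, ranged from 19.2 to 31.2 CPM in SAL (median 25.9) and from 19.8 to 68.9 CPM in PRL (median 41.6). PRL replicate 3 lay within the SAL range and the other 5 PRL libraries above it, and the log2 fold change was 0.73 ± 0.30 (adjusted p = 0.810). Cpt2, which releases the chain from carnitine inside the mitochondrion, ranged from 0 to 13.7 CPM in SAL (median 2.88) and from 0 to 15.9 CPM in PRL (median 11.6). Its reads numbered 9 in SAL and 26 in PRL, with a log2 fold change of 1.23 ± 0.59 (adjusted p = 0.996). Acsl4, a synthetase with a preference for arachidonic acid, ranged from 15.6 to 36.7 CPM in SAL (median 16.6) and from 10.6 to 15.8 CPM in PRL (median 12.8). Its log2 fold change was -0.80 ± 0.37 (adjusted p = 0.996). After TMM scaling its ranges no longer touched, at 15.8 to 36.4 in SAL and 9.80 to 15.4 in PRL. The closest libraries were SAL replicate 2 (15.79, from 6 reads) and PRL replicate 3 (15.43, from 4 reads), so the gap was narrow. Such a separation was found for 0.0748% of all genes on that scale, with 0.0935% separated upwards. Acsl4 was named for its small p, so the separation adds no separate evidence.

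Among the other genes of activation and entry, Cpt1a had nearly the same level in both groups, at 37.7 ± 6.82 CPM in SAL and 40.5 ± 11.7 CPM in PRL. Its log2 fold change was -0.004 ± 0.275. Acsl1 ranged from 73.1 to 198 CPM in SAL and from 100 to 212 CPM in PRL, with a log2 fold change of -0.02 ± 0.24. Acsm2, a medium-chain synthetase of kidney and liver, was at 91.7 ± 37.4 and 114 ± 54.8 CPM.

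The acyl-CoA dehydrogenases other than Acad8 also overlapped. Acadm ranged from 70.4 to 406 CPM in SAL (median 213) and from 170 to 502 CPM in PRL (median 229), and its log2 fold change was 0.35 ± 0.29 (adjusted p = 0.999). The spread inside each group was thus far larger than the difference between their medians. The long-chain enzyme Acadl was at 92.8 ± 26.0 and 131 ± 59.0 CPM with a log2 fold change of 0.39 ± 0.24, and the very-long-chain enzyme Acadvl was at 78.4 ± 25.8 and 93.2 ± 21.2 CPM. Acads, for short chains, had a log2 fold change of 1.07 ± 0.58 on 12 SAL reads and 30 PRL reads.

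Later steps of the mitochondrial cycle gave the same picture. Acaa2 ranged from 134 to 950 CPM in SAL (median 457) and from 237 to 707 CPM in PRL (median 472), with a log2 fold change of -0.09 ± 0.28. Hadh, the 3-hydroxyacyl-CoA dehydrogenase for shorter chains, ranged from 163 to 580 CPM in SAL (median 369) and from 182 to 661 CPM in PRL (median 369), with 0.05 ± 0.26. Acat1, the acetoacetyl-CoA thiolase, was at 245 ± 59.4 and 273 ± 69.6 CPM, and its log2 fold change was 0.10 ± 0.21. The trifunctional subunits Hadha and Hadhb were at 79.1 ± 36.7 and 106 ± 23.6 CPM in SAL and at 94.5 ± 29.6 and 118 ± 38.3 CPM in PRL. The isomerase Eci1 had a log2 fold change of 0.05 ± 0.19, from 288 to 516 CPM in SAL (median 412) and 383 to 603 CPM in PRL (median 412). Eci2, a second isomerase of mitochondria and peroxisomes, was at 259 ± 86.1 and 343 ± 172 CPM with 0.31 ± 0.24. The other mitochondrial members of these steps (Crat, Acsl5, Acot2, Acad9, Acadsb, Hsd17b10, Echs1, Decr1 and Etfdh) had log2 fold changes from -0.60 (Crat, on 44 reads) to 0.27 (Decr1, on 408 reads).

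Etfa ranged from 275 to 676 CPM in SAL (median 494) and from 272 to 741 CPM in PRL (median 479), with a log2 fold change of -0.10 ± 0.21. Etfb ranged from 554 to 1060 CPM in SAL (median 659) and from 621 to 987 CPM in PRL (median 754), with 0.04 ± 0.20. In each group the highest Etfb library was replicate 6, which was also the lowest Etfa library. The ratio of Etfb to Etfa was 3.85 in SAL replicate 6 and 3.63 in PRL replicate 6, and between 0.939 and 1.70 in the other 10 libraries. Of the ketone body enzymes, Bdh1 had a log2 fold change of 0.84 ± 0.51 on 50 reads and Oxct1 one of -0.44 ± 0.33 on 142 reads.

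The peroxisomal enzymes had log2 fold changes between -0.07 and 0.19. Ehhadh ranged from 18.8 to 78.4 CPM in SAL (median 39.4) and from 15.8 to 51.7 CPM in PRL (median 46.4), with -0.07 ± 0.32. Scp2 ranged from 125 to 288 CPM in SAL (median 242) and from 139 to 431 CPM in PRL (median 259), with 0.14 ± 0.22. Phyh, the hydroxylase that starts the breakdown of phytanic acid, was at 53.5 ± 36.3 and 60.0 ± 39.0 CPM, and the branched-chain oxidase Acox2 was at 28.1 ± 10.1 and 28.3 ± 11.6 CPM. Abcd3 ranged from 73.4 to 98.9 CPM in SAL (median 91.6) and from 59.6 to 119 CPM in PRL (median 85.3), with -0.09 ± 0.22.

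The regulator Ppara was read in all 12 libraries of experiment 2, at 10.2 ± 4.68 CPM in SAL and 10.8 ± 5.48 CPM in PRL, with a log2 fold change of -0.09 ± 0.46. Of the peroxins, Pex19 was at 27.3 ± 10.9 and 29.0 ± 9.93 CPM with 0.04 ± 0.32, and Pex14 was at 8.17 ± 4.82 and 10.9 ± 7.96 CPM with 0.57 ± 0.49. The remaining 4 lay between -0.48 (Pex11a, on 31 reads) and 0.59 (Pex3, on 37 reads). None of the 6 had an unadjusted p under 0.05.

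Within each group of experiment 2, the members' levels differed from kidney to kidney. The spread was expressed as the coefficient of variation (CV) within groups that remains after counting error is taken off, a measure that does not grow with the reads of a gene, for the 31 members with at least 100 reads among 3618 such genes. The median of those genes was 20.2%. The largest values were those of Phyh at 52.3%, Acadm at 50.8%, Decr1, a reductase for unsaturated chains, at 48.5%, and Acaa2 at 45.7%. Each of these lay above at least 93.0% of the 3618 genes, and Phyh above 96.7%. Hadh was at 38.0% and Eci2 at 35.9%, while Etfb, at 19.1%, and Eci1, at 15.5%, were below the median gene. For Cpt1a, Acad8 and Etfdh no spread beyond counting error was found, but these had 160 to 180 reads, at which a moderate spread can be missed.

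The same few kidneys held the extremes. SAL replicate 6 was the lowest library for 14 of the 31 members, PRL replicate 6 for 7 and PRL replicate 3 for 5, while PRL replicate 5 was the highest for 15, SAL replicate 3 for 4 and PRL replicate 2 for 4. With TMM scaling SAL replicate 6 was lowest for 13 and PRL replicate 5 highest for 11. PRL replicate 5 was also the library with fewest reads. The extremes lay in both groups, and Acsl1 went against them, with SAL replicate 3 lowest (73.1 CPM) and SAL replicate 6 the highest of its group (198 CPM). Acaa1a was highest in SAL replicate 6, at 106 CPM, and lowest in PRL replicate 3, at 19.8 CPM.

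**Figure D4:**
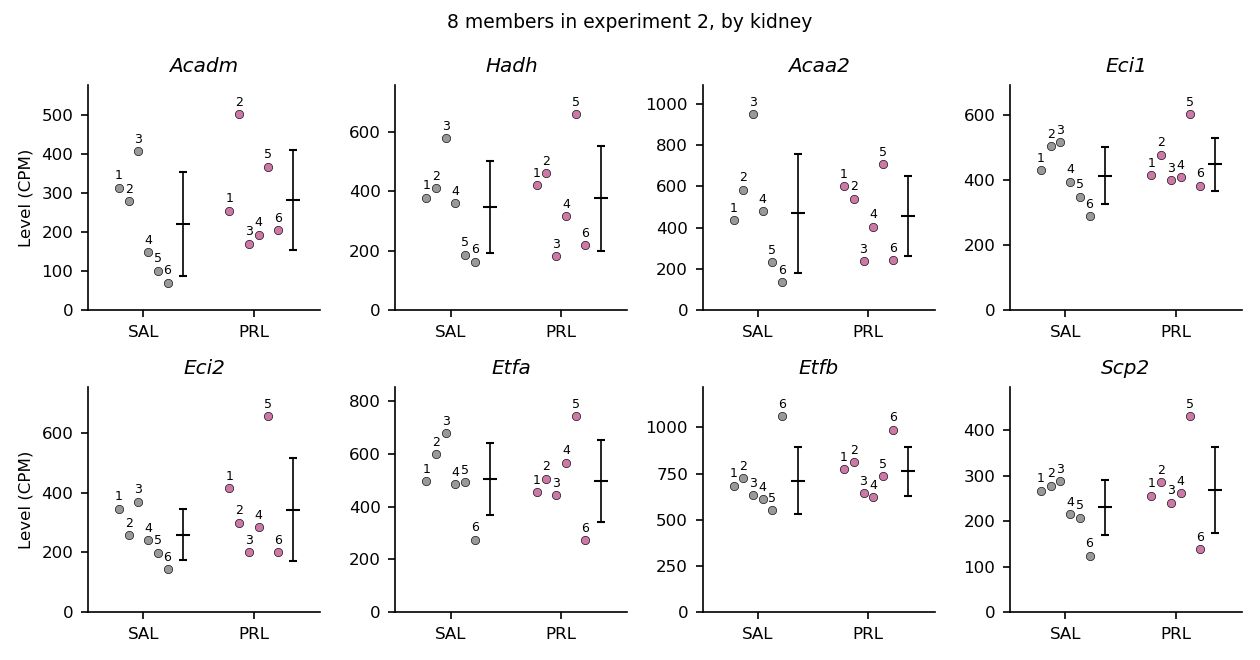
Level in CPM (vertical axes, from 0) of 8 members in SAL and PRL; each point is 1 kidney with its replicate number, the bar is the mean and its whiskers are 1 SD (n = 6 per group). SAL replicates 5 and 6 and PRL replicates 3 and 6 are low for Hadh and Acaa2, and replicate 6 of both groups is the highest for Etfb.

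Markers of the proximal tubule and of the thick limb and distal tubule moved with these levels. The sum of the proximal tubule markers was 2552 to 6056 CPM in SAL and 2823 to 6530 CPM in PRL, with SAL replicate 6 lowest, then PRL replicate 3, SAL replicate 5 and PRL replicate 6, and PRL replicate 2 highest. The 4 libraries with the lowest marker sums were also the 4 with the lowest sums of mitochondrial members, at 3349 to 3965 CPM. Divided by the marker sum, the mitochondrial sum was 0.859 to 1.31 over the 12 libraries, where the mitochondrial sum itself ran from 3349 to 6849 CPM. The 9 thick limb and distal tubule markers summed to 551 to 1630 CPM in SAL and 669 to 1948 CPM in PRL. The libraries with their highest sums, PRL replicate 5, SAL replicate 3 and PRL replicate 2, also had the highest mitochondrial sums, in the same order, and SAL replicate 6 was lowest in both. Collecting duct markers ran from 541 to 872 CPM, with SAL replicate 3 highest and SAL replicate 2 lowest. The part of tubule content in the spread of the members was not tested. Between PRL and SAL, none of the 16 proximal tubule markers tested was called and none had an unadjusted p under 0.05, with a median log2 fold change of 0.08.

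**Figure D5:**
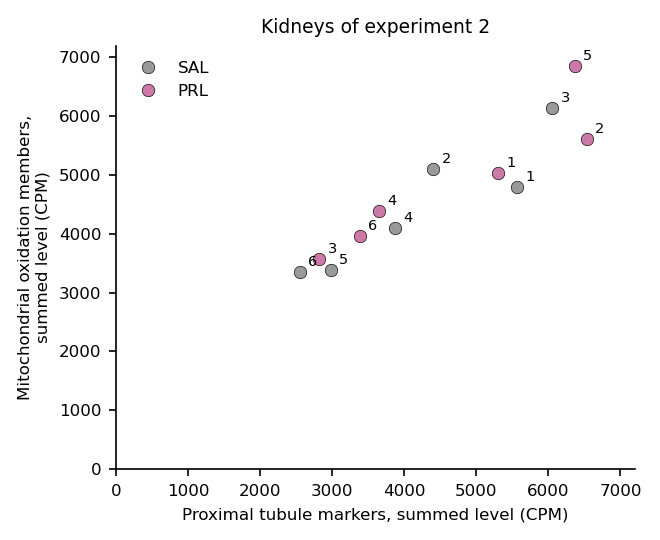
Summed level of the 30 mitochondrial oxidation genes (vertical axis, CPM) against the summed level of proximal tubule markers (horizontal axis, CPM) in the 12 kidneys of experiment 2, with replicate numbers. Kidneys with few marker reads have few mitochondrial reads in both groups, and SAL and PRL points are mixed.

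Among other genes of the pathway, 53 of 65 fatty acid oxidation genes were tested in experiment 2 and none was called. At an unadjusted p under 0.05, 3 were higher and 1 was lower in PRL, as were 2.54% and 2.34% of all genes. Acsf2, a medium-chain synthetase, was at 40.5, 5.20, 32.0, 0, 0 and 9.60 CPM in SAL replicates 1 to 6 and at 72.0, 135, 0, 18.4, 86.2 and 56.7 CPM in PRL replicates 1 to 6, with a log2 fold change of 2.29 ± 0.54 (adjusted p = 0.165). Pnpla2, the triglyceride lipase that frees fatty acids from lipid droplets, was at 7.80 to 21.4 CPM in SAL (mean 15.5 ± 4.68) and at 27.6 to 40.2 CPM in PRL (mean 33.7 ± 5.33). Every PRL library was above every SAL library, as for 0.112% of all genes, with 0.028% separated downwards. Pnpla2 was named for its small p, so the separation adds no separate evidence. The log2 fold change was 1.06 ± 0.32 (adjusted p = 0.298). Plin2, a coat protein of lipid droplets, was at 28.1 ± 10.3 and 48.8 ± 22.0 CPM, with 0.74 ± 0.31 (adjusted p = 0.891).

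Of 62 other peroxisome genes, 52 were tested and none was called. The peroxisomal protease Tysnd1 was the 1 higher at an unadjusted p under 0.05, on 3 reads in SAL and 13 in PRL. Of 29 lipid nuclear receptors and coactivators, 25 were tested, none was called, and 2 were higher and 2 lower at that p. Over all genes 2.54% were higher and 2.34% lower. Ucp2, a mitochondrial carrier that is a target of these receptors, was at 4.05 ± 3.96 and 14.6 ± 7.83 CPM, with a log2 fold change of 1.98 ± 0.59 (adjusted p = 0.298). Pparg, the receptor of fat cells, was at 1.27 ± 1.45 and 8.42 ± 7.24 CPM, with 2.20 ± 0.78 (adjusted p = 0.611), and Ppargc1a, the coactivator that drives mitochondrial genes, was at 22.3 ± 8.65 and 13.1 ± 7.29 CPM, with -0.87 ± 0.39 (adjusted p = 0.996).

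The summed adipose markers had a higher mean in PRL (334 ± 160 CPM) than in SAL (200 ± 125 CPM). Pnpla2, Plin2, Ucp2 and Pparg also had higher means in PRL. Of 10 markers, 9 were listed, and their sum was 88.4 to 398 CPM in SAL and 189 to 603 CPM in PRL, so that the groups overlapped. Of the 8 tested, 2 were higher in PRL at an unadjusted p under 0.05, as were 2.54% of all genes. None was lower, as were 2.34%. The 2 were Ucp1 (8 reads in SAL, 28 in PRL) and Cfd (3 and 17 reads), and none of the 8 was called. In PRL, Ucp1 and Cfd had means of 20.2 and 7.56 CPM, against 334 CPM for the sum, so that most of the sum came from other markers. The defining marker Adipoq had 9 reads in SAL and 16 in PRL, Plin1 had 2 and 5, and Retn was not listed. The sum in SAL was highest in replicates 5 and 6 and in PRL in replicates 5 and 6. The part of fat tissue on the kidney in these levels was not tested.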

How the data were processed

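RNA of kidney tissue (24 hamsters) was sequenced as cDNA on nanopore flow cells, 1 per experiment. According to the methods, frozen kidneys were cut across, with 1 part sectioned for histology and the other stored for molecular work. The study's methods call the kit direct cDNA and the labels call it PCR-cDNA. According to the methods, the authors called bases with Guppy, trimmed with Porechop, filtered with Filtlong and aligned the reads to the mouse genome with Minimap2. The submitters' processing notes also name Salmon. The deposited tables hold estimated counts per mouse transcript for each library, with no normalization by the authors. A transcript that the hamster reads match poorly loses counts.

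For each gene the row with most counts was kept, and counts were rounded. A gene was tested where 4 of 12 libraries (experiment 1) or 6 of 12 (experiment 2) held a count of it, with edgeR 4.0.16 (TMM, quasi-likelihood, 1 model per experiment, 2-sided, Benjamini-Hochberg over all tested genes) in R 4.3.3. DESeq2 1.42.0 and limma 3.58.1 (voom) were alternatives, as were the sum of all transcripts of a gene, no or a stricter filter, other scalings, a replicate block and leaving out each library. Non-overlap means that every library of a group lies above every library of the other. A fold against a group with no read was bounded with a limit of 3 counts over the group. The CV within groups was taken from the chi-square of the counts less its counting part, a measure chosen after seeing the data. Intervals are exact at 95% and cover counting error only. The code was tested on simulated data. Each library is 1 animal.

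The members and lists were chosen with earlier results of these data known. Named with full values were the 8 members with most counts in each experiment, up to 6 per comparison and direction with the smallest unadjusted p under 0.05, and Cpt1a, Acadm, Ehhadh, Ppara, Pex14, Pex19 and Abcd3 for their roles. From each list up to 3 genes with the smallest p were named.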

Additional observations from a re-analysis of the deposited data

Results flagged for a closer look

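In 6 of 90 groups of libraries examined for the named members, 1 library lay far from the others of its group. The rate of about 1 in 20 groups by chance need not hold for sparse counts. There, 1 library with reads among zeros stands apart by the whole range of its group. In experiment 1 these were Ppara in LP, where replicate 3 was at 111 CPM and the others at 0, and Ppara in SP28wk, where replicate 3 was at 0 CPM and the others between 34.7 and 41.5 CPM. Scp2 in LP was at 38.8 CPM in replicate 4 and at 0 in the others. Ehhadh was at 50.2 CPM in SP12wk replicate 3 and at 41.5 CPM in SP28wk replicate 2, and at 0 in the other libraries of those groups. All 5 values of experiment 1 rest on 0 to 2 reads. In experiment 2, Etfb in SAL was at 1060 CPM in replicate 6, from 331 reads, where the other 5 SAL libraries lay between 554 and 726 CPM.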

How the results depend on the processing

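No member passed an adjusted p of 0.05 in any of the 48 fits without a library or the 40 other alternative fits. The values below are log2 fold changes that changed sign, and counts of members at an unadjusted p under 0.05 that changed by over 1.5 times. The cause was not tested. With no filter, for SP12wk minus LP, Etfa 0.0151 (from -0.0116), Ppara 0.0200 (from -0.00663). With limma-voom, for SP12wk minus LP, Etfa 0.0128 (from -0.0116), Ppara 0.192 (from -0.00663), and for SP28wk minus SP12wk, Cpt1a 0.166 (from -0.455), Pex14 -0.342 (from 0.132), and for LP and SP28wk minus SP12wk, Acaa2 0.169 (from -0.0856), and for PRL minus SAL, Acaa2 0.0504 (from -0.091), Ehhadh 0.0545 (from -0.0664). On summing all transcripts of a gene, for SP28wk minus SP12wk, Eci1 -0.0667 (from 0.0816), Ppara -0.166 (from 0.51), Pex14 -0.0783 (from 0.132), and for SP28wk minus LP, Ppara -1.02 (from 0.503), and for PRL minus SAL, Ppara 0.000921 (from -0.0891). With a stricter filter, for SP28wk minus SP12wk, Eci1 -0.0405 (from 0.0816). With DESeq2's size factors, for SP28wk minus SP12wk, Eci1 -0.0838 (from 0.0816), Pex14 -0.0301 (from 0.132). With library totals without TMM, for SP28wk minus SP12wk, Eci1 -0.0866 (from 0.0816), Pex14 -0.0325 (from 0.132), and for SP28wk minus LP, Hsd17b10 -0.154 (from 0.204), and for PRL minus SAL, Cpt1a 0.0606 (from -0.00409). With DESeq2, for SP28wk minus SP12wk, Eci1 -0.0936 (from 0.0816), Pex14 -0.159 (from 0.132).

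The members higher at that p in SP12wk than in LP numbered 1 with a stricter filter, 1 without TMM and 0 with DESeq2, against 3, and 1 was lower with no filter. In SP28wk against SP12wk, 1 was higher with limma-voom. In SP28wk against LP the higher numbered 0 on summing transcripts, 2 with no filter and 0 with DESeq2, against 1, and the lower numbered 1 with no filter and 1 without TMM. With LP and SP28wk against SP12wk the lower numbered 1, against 2, on summing transcripts, with a stricter filter, with DESeq2 and with limma-voom. In PRL the higher numbered 1, against 2, on summing transcripts, with a stricter filter and with DESeq2, and the lower numbered 0, against 1, without TMM, with DESeq2 and with limma-voom. On summing transcripts the mitochondrial sum of SP28wk differed by -627 CPM from SP12wk (against -236) and by -814 CPM from LP (against -224), and the Pex sum by 158 CPM (against 34.6) and 76.8 CPM (against -28.7). Dividing levels by the TMM factor, an alternative added after seeing the data, gave 1 member separated upwards and 0 downwards in SP12wk and in SP28wk against LP, in place of 0 and 1, and 1 downwards in PRL in place of 0. Over all genes, PRL against SAL gave 0 calls, but 92 with no filter.

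Leaving out one library at a time gave these ranges. For SP12wk minus LP, Etfa ran from -0.198 to 0.369, Ppara ran from -0.481 to 2.47, Acaa2 ran from -0.0404 to 2.4 and the members higher at that p numbered 0 to 3 and lower at that p numbered 0 to 1. For SP28wk minus SP12wk, Eci1 ran from -0.227 to 0.377, Pex14 ran from -0.575 to 0.653, Cpt1a ran from -0.903 to 0.932, Hsd17b10 ran from -0.686 to 0.194, Scp2 ran from -1.13 to 0.534, Acsl1 ran from -0.0187 to 0.311 and the members lower at that p numbered 0 to 1 and higher at that p numbered 0 to 2. For SP28wk minus LP, Abcd3 ran from -0.275 to 0.414, Hsd17b10 ran from -0.0247 to 0.41 and the members lower at that p numbered 0 to 1 and higher at that p numbered 0 to 2. For LP and SP28wk minus SP12wk, Acaa2 ran from -0.731 to 1.05, Cpt1a ran from -0.288 to 1.54, Ppara ran from -0.998 to 0.716, Etfa ran from -0.0152 to 0.42, Eci1 ran from -0.402 to 0.118, Hsd17b10 ran from -0.779 to 0.0913 and the members lower at that p numbered 0 to 3 and higher at that p numbered 0 to 1. For PRL minus SAL, Ppara ran from -0.295 to 0.0577, Ehhadh ran from -0.259 to 0.207, Cpt1a ran from -0.117 to 0.0848, Acaa2 ran from -0.292 to 0.147, Etfb ran from -0.113 to 0.196, Hadh ran from -0.118 to 0.177, Eci1 ran from -0.043 to 0.0849, Pex19 ran from -0.189 to 0.114, Acat1 ran from -0.0624 to 0.146 and the members higher at that p numbered 0 to 3 and lower at that p numbered 0 to 1.

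As a set, same-numbered samples of different groups did not deviate together, with correlations of -0.113 to 0.203 in experiment 1 and -0.177 to 0.24 in experiment 2. The numbers were therefore not taken as pairs. The value of 0.24 was that of SAL replicate 6 with PRL replicate 6, where differently numbered samples reached 0.213. These are also the 2 libraries with the high ratios of Etfb to Etfa. With a replicate block, members higher at that p numbered 1 in SP12wk against LP and 1 in PRL, members lower numbered 1 for LP and SP28wk against SP12wk and 0 in PRL, and the log2 fold changes of Ppara (SP12wk minus LP, 0.0318) and Acaa2 (PRL minus SAL, 0.0284) changed sign. The block gave 52 calls over all genes for PRL against SAL. Depth limits experiment 1, where a single read was worth at least 17.4 CPM.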
